A study of Homo sapiens with 9 samples.

Results

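The cadherin superfamily genes of VCaP cells were followed across a knockdown of KMT2C. They were taken from the deposited expression table by name: every gene whose symbol begins with CDH, CDHR or PCDH and whose transcript types include protein coding, which gave 94 of the 60612 genes listed (11 further names of this form had no protein-coding transcript type). They comprised 5 type I classical cadherins, 13 type II classical cadherins, 5 other cadherins, 5 cadherin-related genes, 13 non-clustered protocadherins and the clustered protocadherins, with 15 alpha, 16 beta and 22 gamma genes. VCaP is an established human prostate cancer line of luminal type that expresses the androgen receptor and carries the TMPRSS2-ERG fusion. KMT2C encodes a methyltransferase of histone H3 lysine 4 that acts mainly at enhancers. Cells were transfected for 4 days with KMT2C siRNA 1, with KMT2C siRNA 2, or with a control siRNA, whose cells are labelled KMT2C normal, and RNA was sequenced from 3 libraries of each group. All groups were the same cell line, and nothing in the labels says whether the 3 libraries of a group came from separate cultures, so the p-values measure only how these samples spread, and that spread may be technical.

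Classical cadherins are single-pass membrane proteins that bind cadherins on the neighbouring cell through calcium-dependent extracellular repeats and hold the actin cytoskeleton through beta-catenin and alpha-catenin. E-cadherin, encoded by CDH1, is the main cadherin of epithelial adherens junctions, including those of luminal prostate cells. The clustered protocadherins lie in 3 tandem arrays on chromosome 5 and are best known from neurons, where each cell switches on its own subset of promoters, with CTCF and cohesin looping a distant enhancer to those chosen, and so gains a surface identity. In the alpha and gamma arrays each variable first exon is spliced to constant exons shared by the whole array, whereas each beta gene is a single exon of its own.

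Library totals lay between 58462215 and 70726213 estimated counts, and 24406 to 25318 genes had counts. KMT2C itself was at 1.54, 1.80 and 2.28 FPKM (fragments scaled for transcript length and sequencing depth) with siRNA 1 and 1.72, 1.64 and 1.73 FPKM with siRNA 2, against 13.7, 12.1 and 12.9 FPKM with control siRNA. No knockdown library reached the control range. Its log2 fold change, ± SE, was -2.81 ± 0.13 under siRNA 1 and -2.98 ± 0.13 under siRNA 2 (edgeR adjusted p = 4.56e-06 and 8.76e-07). All 9 luminal prostate markers examined were over 1 FPKM. Their summed level was 837 to 869 FPKM with siRNA 1, 776 to 802 FPKM with siRNA 2 and 1532 to 1622 FPKM with control siRNA. KMT2C has partial duplicate copies in the genome, and no source used here says how their reads were counted. Of 5 retinal markers, looked at because the design text calls the RNA retinal, 4 had no counts in any library and the other stayed at or under 0.118 FPKM.

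Most of the family was at or near 0. Of the 94 genes, 10 had no counts in any library (CDH9, CDH16, CDH18, CDHR4, PCDH10, PCDH11X, PCDH11Y, PCDH15, PCDHA5 and PCDHB1), and 52 averaged under 0.1 FPKM. The type II cadherins CDH6, CDH8, CDH11, CDH19 and CDH20 did not exceed 0.0178 FPKM in any library. Only CDH1 averaged over 10 FPKM. The expression filter, at least 1 FPKM in at least 3 of the 9 libraries, was passed by 16 members, of which 8 were at or above 1 FPKM in all 9 libraries. CDH12 passed it through the siRNA 2 libraries alone, so its difference from the other groups was built into its passing.

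Among the 16 tested genes, 8 changed with siRNA 1, 5 higher and 3 lower, where 41.7% of all 12830 genes tested were called (21.2% higher and 20.5% lower). With siRNA 2, 13 changed, 8 higher and 5 lower, where 49.3% of all genes were called (24.4% higher and 24.9% lower). Without CDH12, 8 of 15 were called with siRNA 1, 5 higher and 3 lower, and 12 of 15 with siRNA 2, 7 higher and 5 lower. Those 15 still include PCDHB11, which reached 1 FPKM in 1 siRNA 1, 3 siRNA 2 and 0 control libraries. The median log2 fold change of those 15 genes was 0.32 with siRNA 1 and 0.34 with siRNA 2, beside 0.01 and 0.02 over all genes. With CDH12 it was 0.34 and 0.59. The count with siRNA 1 was 5 without the third control library and 5 without siRNA 1 replicate 2. Both comparisons use the same 3 control libraries. In what follows, levels are FPKM with mean ± SD over 3 libraries, changes are log2 fold changes ± SE from edgeR's quasi-likelihood test, and adjusted p is Benjamini-Hochberg over all genes tested. A gene is said to have changed where adjusted p was at most 0.05.

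**Figure D1:**
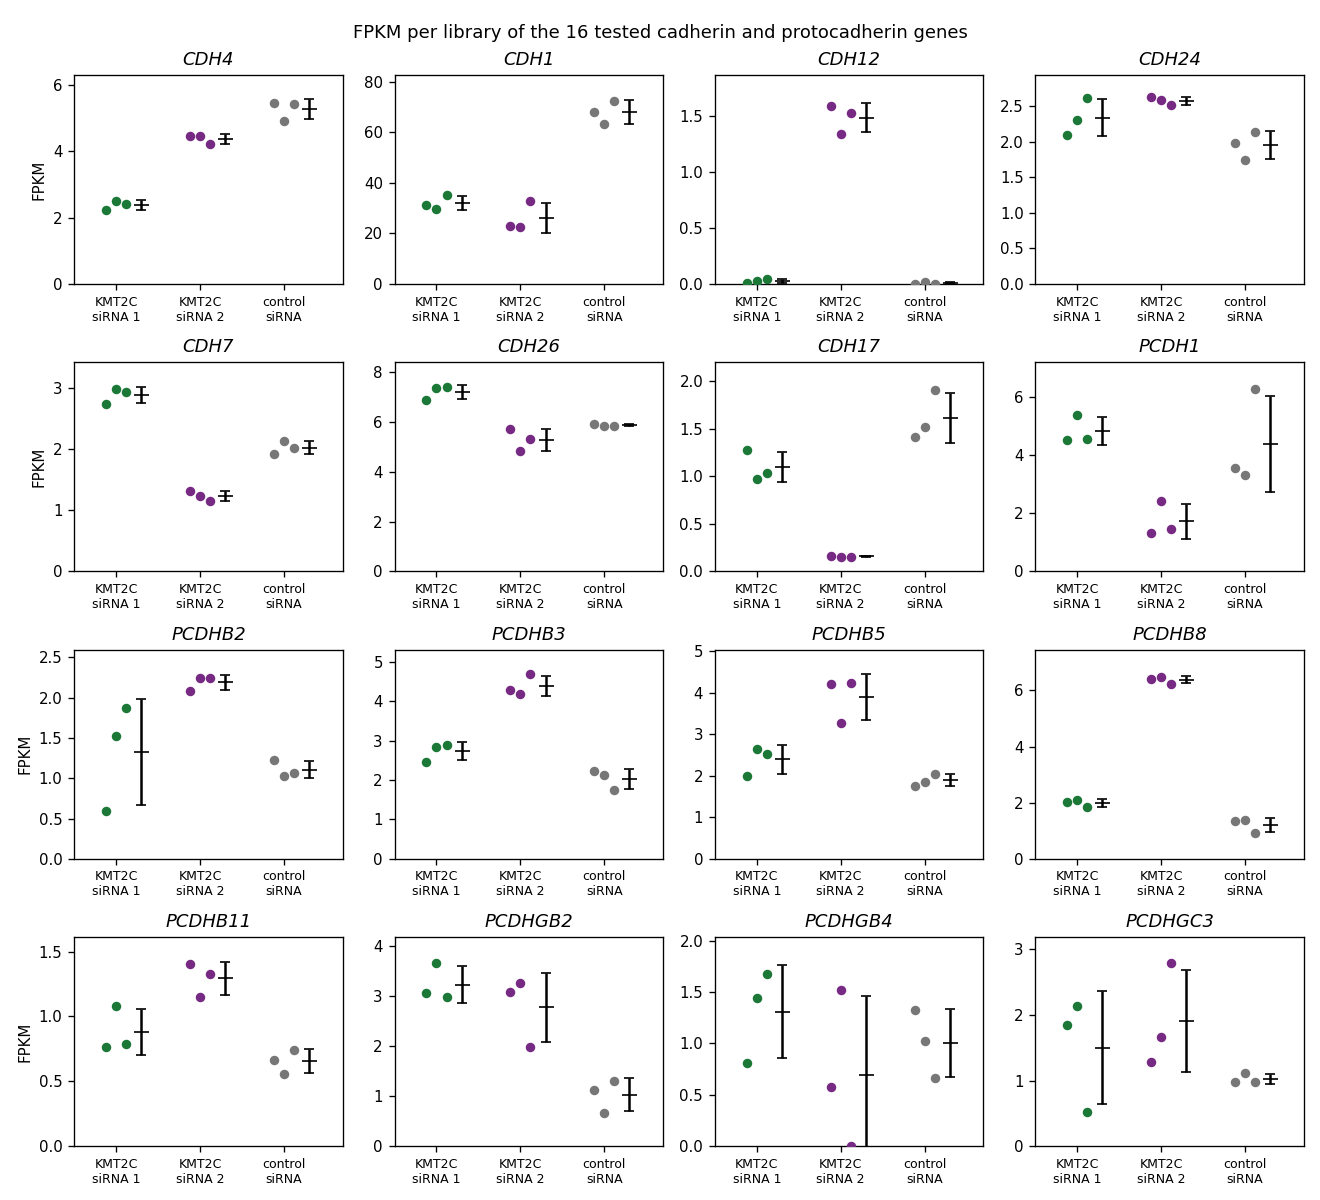
FPKM (vertical axis, linear, from 0, scaled per gene) of the 16 tested cadherin and protocadherin genes in each library of KMT2C siRNA 1, KMT2C siRNA 2 and control siRNA. Points are libraries, and the bar beside them is the mean ± SD of 3. CDH1 sits lower in all 6 knockdown libraries, CDH12 is seen with siRNA 2, and PCDHB8 is highest with siRNA 2.

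**Figure D2:**
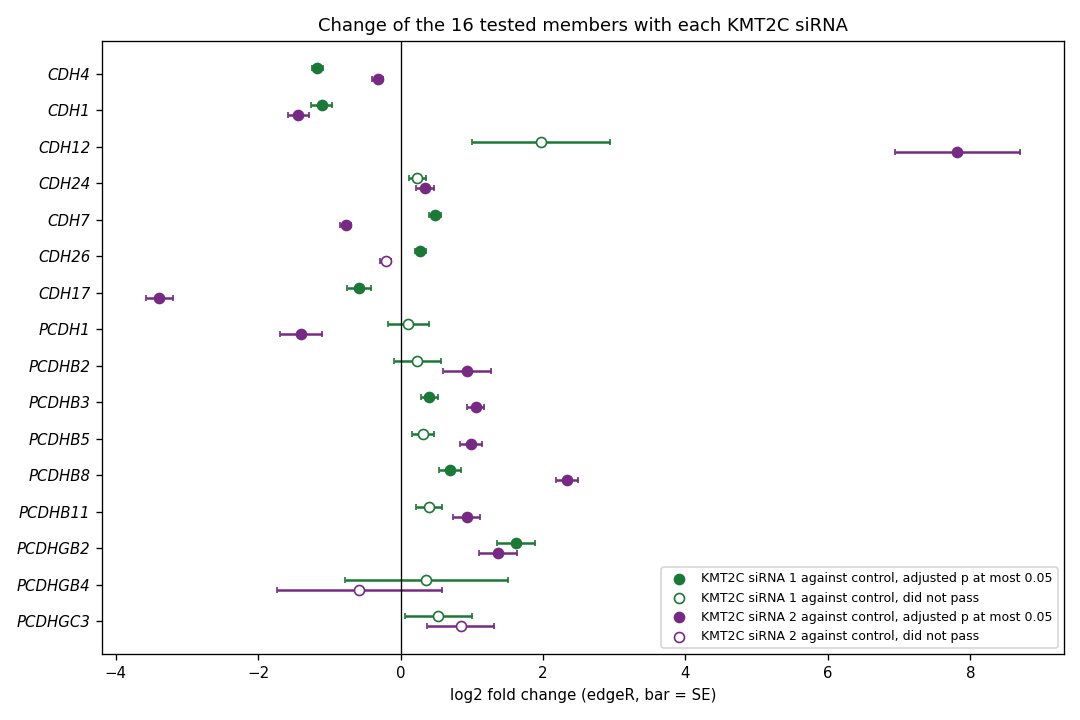
Log2 fold change of the same 16 genes against control siRNA with KMT2C siRNA 1 (green) and siRNA 2 (purple), with SE as bars. Filled points have adjusted p of at most 0.05, and CDH12 passed the filter through the siRNA 2 libraries alone. CDH1, CDH4 and CDH17 lie left of 0 with both siRNAs, the 5 beta protocadherins and PCDHGB2 right of 0 with both, and CDH7 on opposite sides.

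E-cadherin mRNA was reduced by both siRNAs. CDH1 (ENSG00000039068, GRCh38 chromosome 16, 68737292 to 68835537, plus strand) had 31.2, 29.9 and 35.1 FPKM with siRNA 1 and 22.8, 22.6 and 32.8 FPKM with siRNA 2, against 68.1, 63.2 and 72.6 FPKM with control siRNA. The 6 knockdown libraries were all below the control libraries, and the third siRNA 2 library lay inside the siRNA 1 range. The change was -1.11 ± 0.15 with siRNA 1 (adjusted p = 5.22e-04), or 2.15-fold lower, and -1.44 ± 0.15 with siRNA 2 (adjusted p = 7.64e-05), or 2.70-fold lower. Between the siRNAs CDH1 differed by 0.33 ± 0.15, which did not pass (adjusted p = 0.110). It did without siRNA 2 replicate 3, at 0.52 with adjusted p = 0.00452. In these bulk libraries fewer cells with the transcript and less transcript per cell cannot be told apart. Of the luminal markers, KLK3, KLK2, TMPRSS2, ERG and KRT8 were also lower with both siRNAs, while the epithelial adhesion gene EPCAM averaged 104, 91.1 and 99.2 FPKM with siRNA 1, siRNA 2 and control siRNA and did not pass the test. The part of these markers in the CDH1 result was not tested.

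CDH4, which encodes R-cadherin, was the other expressed type I cadherin. It had 2.23, 2.51 and 2.41 FPKM with siRNA 1 and 4.47, 4.45 and 4.21 FPKM with siRNA 2, against 5.44, 4.92 and 5.44 FPKM with control siRNA. The 3 groups did not overlap, with siRNA 1 lowest. CDH4 fell by 1.17 ± 0.07 on the log2 scale with siRNA 1 (adjusted p = 1.35e-05) and by 0.32 ± 0.07 with siRNA 2 (adjusted p = 0.00592). The siRNA 1 effect was the larger fall, by -0.85 ± 0.07 (adjusted p = 4.77e-05).

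The type I genes that mark other cell states stayed low. CDH3, which encodes the P-cadherin of basal epithelium, had 0.556, 0.563 and 0.730 FPKM with siRNA 1 and 0.801, 0.750 and 0.856 FPKM with siRNA 2, against 1.01, 0.865 and 1.11 FPKM with control siRNA, just under the filter. When edgeR's own count filter was used instead, which tests 60 of the 94 members, CDH3 fell by 0.72 ± 0.16 with siRNA 1 (adjusted p = 0.00871), while its -0.41 ± 0.16 with siRNA 2 did not pass (adjusted p = 0.0729). The basal keratin KRT14 averaged 7.12, 0.810 and 2.48 FPKM with siRNA 1, siRNA 2 and control siRNA, and was the only gene of 3 basal markers over 1 FPKM, with KRT5 and TP63 at or near 0. Their summed level was 6.27 to 7.86 FPKM with siRNA 1, 0.719 to 0.886 FPKM with siRNA 2 and 2.37 to 2.63 FPKM with control siRNA, and their part in the CDH3 result was not tested. CDH2, which encodes the N-cadherin of mesenchymal and neural cells, was named after its values were seen. It had 0.131, 0.114 and 0.155 FPKM with siRNA 1 and 0.153, 0.233 and 0.295 FPKM with siRNA 2, against 0.0376, 0.0954 and 0.118 FPKM with control siRNA. On the count filter CDH2 rose by 1.31 ± 0.42 with siRNA 2 (adjusted p = 0.0360), and its 0.62 ± 0.41 with siRNA 1 did not pass (adjusted p = 0.320). Even with siRNA 2, mean CDH2 stayed at 0.227 FPKM beside 26.1 FPKM for CDH1.

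CDH12, CDH7 and CDH24 were the type II classical cadherins above the filter. CDH12, a cadherin of brain neurons (chromosome 5, 21750673 to 22853344, minus strand), had 0.00814, 0.0244 and 0.0409 FPKM with siRNA 1 and 1.59, 1.34 and 1.52 FPKM with siRNA 2. In control cells the middle library had 0.0164 FPKM and the others had no counts. Every siRNA 2 library was far above the other 6. Over the groups CDH12 had 33 estimated counts with siRNA 1, 1970 with siRNA 2 and 8 with control siRNA. About 4 counts are taken to stand for 1 sequenced fragment, which no source used here states. Scaled for depth, the ratio to control was 244 with siRNA 2 and 4.09 with siRNA 1. Both ratios rest on the 8 control counts. For siRNA 1 the 95% exact counting interval, which pools the libraries of a group and assumes 4 counts per fragment, was 0.792 to 38.3. Since CDH12 entered the test through the group where it is high, the siRNA 2 values are a description. No p or interval is given for them. With siRNA 1 it did not pass (adjusted p = 0.139). The 4 CDH12 pseudogenes in the table, CDH12P1 to CDH12P4, lay between 0.0951 and 0.966 FPKM with siRNA 2, against 0.441 to 1.08 FPKM with control siRNA, and 1.61% of the 75-base stretches of the longest CDH12 coding transcript occur in the transcripts of another gene.

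CDH7, a cadherin known from neurons and neural crest in the chick, went in opposite directions with the 2 siRNAs. It had 2.74, 2.99 and 2.93 FPKM with siRNA 1 and 1.32, 1.23 and 1.15 FPKM with siRNA 2, against 1.93, 2.14 and 2.01 FPKM with control siRNA. No group overlapped another. CDH7 rose by 0.49 ± 0.08 with siRNA 1 (adjusted p = 0.00167) and fell by 0.77 ± 0.08 with siRNA 2 (adjusted p = 8.56e-05). The siRNA effects differed by 1.26 ± 0.08 (adjusted p = 1.14e-05).

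CDH24, a type II cadherin that binds catenins, averaged 2.34 ± 0.261 FPKM with siRNA 1, 2.57 ± 0.0538 FPKM with siRNA 2 and 1.95 ± 0.201 FPKM with control siRNA. Its 0.34 ± 0.12 with siRNA 2 passed narrowly (adjusted p = 0.0423) and no longer passed without either of the first 2 control libraries, without siRNA 1 replicate 2 or without any siRNA 2 library (adjusted p = 0.0558 to 0.143). It did not pass on the count filter or without a low-value filter either (adjusted p = 0.0980 and 0.141). The change of 0.23 ± 0.12 with siRNA 1 did not pass (adjusted p = 0.153). CDH10, another brain cadherin and the highest type II gene below the filter, averaged 0.263 ± 0.117 FPKM with siRNA 1, 0.179 ± 0.108 FPKM with siRNA 2 and 0.0669 ± 0.0356 FPKM with control siRNA. On the count filter it rose by 1.92 ± 0.63 with siRNA 1 (adjusted p = 0.0498), while 1.29 ± 0.62 with siRNA 2 did not pass (adjusted p = 0.145).

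Of the cadherins outside the classical types, CDH17 showed the largest fall of any tested member with siRNA 2. It encodes the liver-intestine cadherin of gut epithelium, which has a short cytoplasmic tail without a catenin site. CDH17 had 1.28, 0.976 and 1.04 FPKM with siRNA 1 and 0.166, 0.156 and 0.153 FPKM with siRNA 2, against 1.42, 1.52 and 1.91 FPKM with control siRNA. The siRNA 2 libraries stood far below all others. CDH17 fell by 3.39 ± 0.19 on the log2 scale with siRNA 2 (adjusted p = 2.77e-06), or 10.5-fold, and by 0.59 ± 0.17 with siRNA 1 (adjusted p = 0.0250). The siRNA 1 call was lost without the third control library or without siRNA 1 replicate 2 or 3, and without a low-value filter (adjusted p = 0.0661 to 0.0814). The siRNA effects differed by 2.80 ± 0.19 (adjusted p = 1.26e-05).

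CDH26, known from airway and oesophageal epithelium, had the second highest mean FPKM of the members over all 9 libraries. It had 6.89, 7.37 and 7.40 FPKM with siRNA 1 and 5.72, 4.82 and 5.30 FPKM with siRNA 2, against 5.91, 5.86 and 5.82 FPKM with control siRNA. CDH26 rose by 0.27 ± 0.08 with siRNA 1 (adjusted p = 0.0202), and its -0.21 ± 0.08 with siRNA 2 did not pass (adjusted p = 0.0524). On the count filter CDH26 did fall with siRNA 2, by 0.26 ± 0.08 (adjusted p = 0.0334), as it did with DESeq2 size factors, DESeq2's test and without siRNA 2 replicate 1 (adjusted p = 0.0300 to 0.0437). Leaving out any control library, or siRNA 1 replicate 2 or 3, ended the siRNA 1 call (adjusted p = 0.0516 to 0.0645), while the siRNA effects differed by 0.48 ± 0.08 (adjusted p = 0.00139). CDH23, a tip-link cadherin of inner-ear hair cells, averaged 0.0109 ± 0.00490 FPKM with siRNA 1, 0.0317 ± 0.00266 FPKM with siRNA 2 and 0.0299 ± 0.00983 FPKM with control siRNA. Its fall by 1.46 ± 0.46 with siRNA 1 passed on the count filter (adjusted p = 0.0423), but 18.9% of its exonic bases lie opposite C10orf105, and no source used here says that counting was strand-specific.

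No cadherin-related gene passed the FPKM filter, and with the count filter CDHR3 fell with both siRNAs. CDHR3 is the receptor of rhinovirus C on ciliated airway cells (chromosome 7, 105876796 to 106033773, plus strand), and it was named after its values were seen. It had 14, 21 and 22 estimated counts with siRNA 1 and 5, 12 and 14 with siRNA 2, against 273, 292 and 489 with control siRNA. In FPKM that was 0.0242 ± 0.00705 with siRNA 1, 0.0123 ± 0.00649 with siRNA 2 and 0.456 ± 0.121 with control siRNA. On the count filter CDHR3 fell by 4.23 ± 0.38 with siRNA 1 (adjusted p = 8.79e-05) and by 5.18 ± 0.41 with siRNA 2 (adjusted p = 1.61e-05). The same filter called 27.5% of 21150 genes with siRNA 1 (13.3% higher and 14.2% lower) and 35.4% with siRNA 2 (16% higher and 19.4% lower), and it called 12 (6 higher and 6 lower) and 21 (14 higher and 7 lower) of the 60 members it tests. CDHR2, part of the complex that links brush-border microvilli, averaged 0.245 ± 0.0734 FPKM with siRNA 1, 0.204 ± 0.0105 FPKM with siRNA 2 and 0.289 ± 0.0111 FPKM with control siRNA.

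PCDH1, a protocadherin of airway epithelium and the receptor of New World hantaviruses, was the only non-clustered protocadherin above the filter. It had 4.51, 5.37 and 4.57 FPKM with siRNA 1 and 1.31, 2.42 and 1.46 FPKM with siRNA 2, against 3.55, 3.30 and 6.29 FPKM with control siRNA. The siRNA 2 libraries lay below all others, and the siRNA 1 libraries lay within the wide control range. PCDH1 fell by 1.40 ± 0.30 with siRNA 2 (adjusted p = 0.00455), and its 0.11 ± 0.29 with siRNA 1 did not pass (adjusted p = 0.796). The siRNA effects differed by 1.51 ± 0.30 (adjusted p = 0.00433). PCDH12, an endothelial protocadherin and the next in level, averaged 0.232 ± 0.0854 FPKM with siRNA 1, 0.165 ± 0.0373 FPKM with siRNA 2 and 0.151 ± 0.0307 FPKM with control siRNA.

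Of the 5 beta protocadherins that passed the FPKM filter, all 5 rose with siRNA 2, where 24.4% of all genes were called higher. PCDHB3 and PCDHB8 rose with siRNA 1, where 21.2% were. PCDHB2 did not pass with siRNA 2 on the count filter or without a low-value filter (adjusted p = 0.0692 and 0.0906). PCDHB11 reached 1 FPKM in 1 siRNA 1, 3 siRNA 2 and 0 control libraries. It would not have passed the FPKM filter without the siRNA 2 libraries, so its rise is partly built into its passing. The array's genes lie side by side on the plus strand of chromosome 5, and RefSeq promoter windows (GRCh38.p14) were found for 14 of the 16 genes. Background knowledge of this array includes a short conserved element with a CGCT core in front of most of its genes. After the expression values had been seen, the 9 letters found in most of these windows, GGTGGCGCT, were taken and searched on both strands of the 300 bases from 250 before to 50 after each gene's start. They occur in 13 of the 14 beta windows, in 0 of 13 alpha, 0 of 20 gamma and 0 of 27 other member windows, and in 0.501% of all 35116 RefSeq promoter windows. The most shared 13 letters, GGTGGCGCTGCAG, contain them and occur in 10 of the 14 beta windows and in 0.0427% of all windows. Their frequency in the beta windows follows from this choice. Because the letters were taken from beta windows alone, the lack of exact matches in other windows cannot show that a similar element is missing there. Below are 180 bases, 150 before and 30 from the start, of beta genes that rose with siRNA 2 (PCDHB8 at chr5:141177640-141177819, PCDHB3 at chr5:141100323-141100502, PCDHB5 at chr5:141135056-141135235), of 2 expressed genes that did not pass in either comparison on the count filter (PCDHB4 at chr5:141121668-141121847, PCDHB14 at chr5:141223193-141223372) and of PCDHB1 at chr5:141051224-141051403, which had no counts and lacks the letters, all on the plus strand. Capitals mark the match.
PCDHB8: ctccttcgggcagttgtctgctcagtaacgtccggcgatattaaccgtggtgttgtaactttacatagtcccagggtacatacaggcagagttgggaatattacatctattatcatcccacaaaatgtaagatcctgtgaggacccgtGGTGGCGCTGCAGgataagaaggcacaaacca
PCDHB3: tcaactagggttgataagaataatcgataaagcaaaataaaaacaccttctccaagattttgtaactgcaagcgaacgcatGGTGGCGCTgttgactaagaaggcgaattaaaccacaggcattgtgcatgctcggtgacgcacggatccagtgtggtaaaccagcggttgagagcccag
PCDHB5: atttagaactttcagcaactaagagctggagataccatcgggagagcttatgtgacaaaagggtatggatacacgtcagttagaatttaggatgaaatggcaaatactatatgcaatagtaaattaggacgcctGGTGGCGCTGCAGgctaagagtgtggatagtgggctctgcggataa
PCDHB4: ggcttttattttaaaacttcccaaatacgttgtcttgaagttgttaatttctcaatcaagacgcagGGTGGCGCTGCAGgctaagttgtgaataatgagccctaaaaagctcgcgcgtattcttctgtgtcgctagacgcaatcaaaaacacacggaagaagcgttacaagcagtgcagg
PCDHB14: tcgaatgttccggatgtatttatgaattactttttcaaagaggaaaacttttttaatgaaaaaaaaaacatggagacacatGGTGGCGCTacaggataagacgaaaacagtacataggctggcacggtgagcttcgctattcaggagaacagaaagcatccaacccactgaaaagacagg
PCDHB1: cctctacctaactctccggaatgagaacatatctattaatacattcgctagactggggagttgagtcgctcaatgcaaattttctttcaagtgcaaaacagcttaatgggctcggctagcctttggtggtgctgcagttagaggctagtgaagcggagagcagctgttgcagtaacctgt
The match began 2 bases before the RefSeq start in PCDHB8, 16 in PCDHB5, 69 in PCDHB3 and PCDHB14 and 84 in PCDHB4. Genes with the letters thus included both those that rose and those that did not pass, and the match is a description of sequence only.

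PCDHB8 (141177790 to 141180539) showed the largest rise of the tested beta genes. It had 2.04, 2.10 and 1.84 FPKM with siRNA 1 and 6.41, 6.47 and 6.24 FPKM with siRNA 2, against 1.35, 1.37 and 0.922 FPKM with control siRNA. The groups did not overlap, and the siRNA 2 libraries were the highest for any clustered protocadherin. PCDHB8 rose by 0.69 ± 0.15 with siRNA 1 (adjusted p = 0.00682) and by 2.34 ± 0.16 with siRNA 2 (adjusted p = 7.20e-06), a difference of -1.65 ± 0.15 (adjusted p = 7.22e-05). Of the 75-base stretches of its longest coding transcript, 38.8% occur in another gene's transcripts, chiefly its near copy PCDHB13, and how the counting shared such reads is not given in the sources used here. PCDHB13 averaged 0.264 ± 0.0337 FPKM with siRNA 1, 0.278 ± 0.0478 FPKM with siRNA 2 and 0.136 ± 0.0605 FPKM with control siRNA.

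PCDHB3 had 2.47, 2.85 and 2.90 FPKM with siRNA 1 and 4.29, 4.19 and 4.69 FPKM with siRNA 2, against 2.23, 2.13 and 1.75 FPKM with control siRNA. It rose by 0.41 ± 0.12 with siRNA 1 (adjusted p = 0.0240) and by 1.05 ± 0.12 with siRNA 2 (adjusted p = 1.26e-04). The siRNA 1 call was lost without the third control library or without siRNA 1 replicate 2 or 3 (adjusted p = 0.0621 to 0.0766), as it was with only the 2 groups compared in the fit (0.0636) and without a low-value filter (0.0561). PCDHB5 had 2.00, 2.66 and 2.53 FPKM with siRNA 1 and 4.20, 3.27 and 4.24 FPKM with siRNA 2, against 1.77, 1.86 and 2.05 FPKM with control siRNA. The siRNA 2 libraries stood above the rest for both genes. PCDHB5 rose by 0.99 ± 0.15 with siRNA 2 (adjusted p = 7.31e-04), and 0.32 ± 0.15 with siRNA 1 did not pass (adjusted p = 0.128). The siRNA effects differed by -0.65 ± 0.12 for PCDHB3 and -0.67 ± 0.15 for PCDHB5 (adjusted p = 0.00271 and 0.00763).

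PCDHB11 averaged 0.879 ± 0.178 FPKM with siRNA 1, 1.29 ± 0.128 FPKM with siRNA 2 and 0.654 ± 0.0929 FPKM with control siRNA. It rose by 0.93 ± 0.18 with siRNA 2 (adjusted p = 0.00309), a rise partly built into its passing the FPKM filter. On the count filter PCDHB11 rose by 0.88 ± 0.19 with siRNA 2 (adjusted p = 0.00544). PCDHB2 had 0.598, 1.53 and 1.87 FPKM with siRNA 1 and 2.09, 2.24 and 2.24 FPKM with siRNA 2, against 1.23, 1.03 and 1.06 FPKM with control siRNA. The siRNA 1 libraries lay on both sides of the control range and below every siRNA 2 library. PCDHB2 rose by 0.93 ± 0.34 with siRNA 2 (adjusted p = 0.0482), a call lost in 7 of the 9 fits that leave out a library, the exceptions being siRNA 1 replicates 1 and 3. Without siRNA 1 replicate 1, PCDHB2 would also be called with siRNA 1, at 0.59 (adjusted p = 0.0121), beside 0.24 ± 0.34 with it (adjusted p = 0.608). In GENCODE 29, clone-named genes on the opposite strand cover 15.0%, 10.6% and 14.7% of the exonic bases of PCDHB2, PCDHB3 and PCDHB5, and reads of the pair cannot be told apart unless strand was used. Of the 75-base stretches of their longest coding transcripts, 26.0%, 19.5% and 18.2% occur in another gene's transcripts, on either strand. For PCDHB11 the share is 10.5%.

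Along the whole beta array the count filter tested 15 of 16 genes. With siRNA 2, 6 rose and 0 fell, 12 of 15 changes were positive and the median was 0.88, where 16% of all genes so tested were called higher and 19.4% lower, with a median of 0.0088. With siRNA 1, 2 rose and 0 fell, 12 of 15 were positive and the median was 0.30. Over all genes 13.3% were called higher with siRNA 1, the same share as 2 of 15, and the median was 0.00054. PCDHB15, at the far end of the array, averaged 0.206 ± 0.0269 FPKM with siRNA 1, 0.692 ± 0.0577 FPKM with siRNA 2 and 0.265 ± 0.0345 FPKM with control siRNA, and rose by 1.27 ± 0.20 with siRNA 2 (adjusted p = 0.00104). PCDHB7, next to PCDHB8, had 0.367, 0.283 and 0.281 FPKM with siRNA 2, against 0.0405, 0 and 0.0240 FPKM with control siRNA, and rose by 3.68 ± 0.85 (adjusted p = 0.00849). PCDHB4, the highest beta gene below the filter, averaged 0.617 ± 0.129 FPKM with siRNA 1, 0.620 ± 0.0307 FPKM with siRNA 2 and 0.584 ± 0.0858 FPKM with control siRNA. PCDHB14 averaged 0.579 ± 0.0272 FPKM with siRNA 1, 0.559 ± 0.0474 FPKM with siRNA 2 and 0.536 ± 0.156 FPKM with control siRNA. Neither PCDHB4 nor PCDHB14 passed. PCDHB4 lies between PCDHB3 and PCDHB5, which both rose with siRNA 2. PCDHB14 lies between PCDHB15, which rose, and PCDHB13, which did not pass with siRNA 2 (adjusted p = 0.0599). PCDHB7, PCDHB13, PCDHB14 and PCDHB15 were named after their values were seen.

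**Figure D3:**
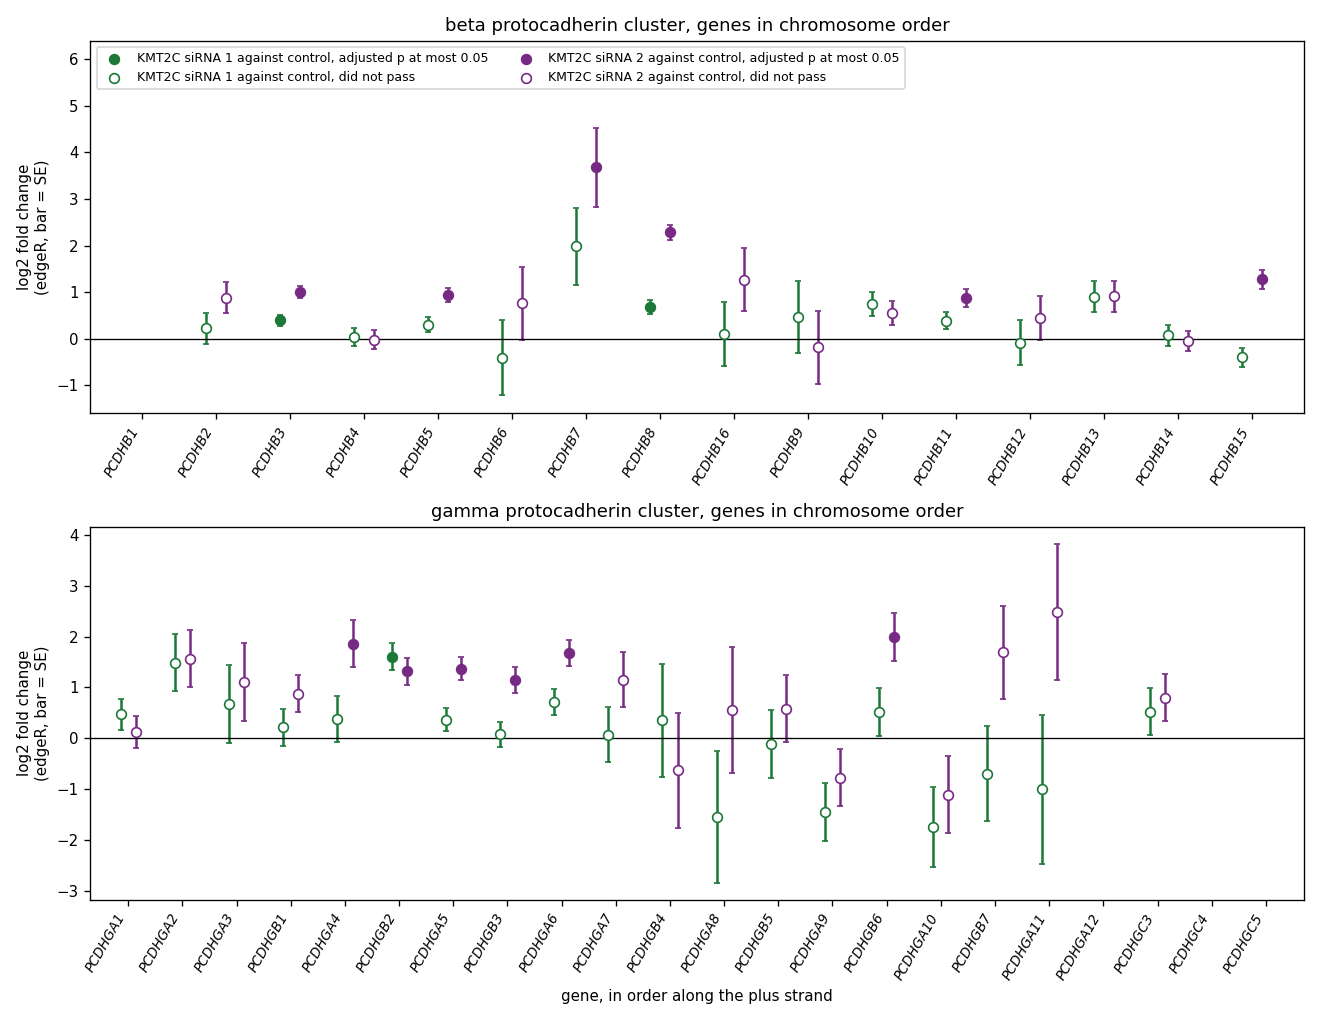
Log2 fold change against control siRNA (vertical axis, SE as bars) of the beta (top) and gamma (bottom) protocadherins in chromosome order, with KMT2C siRNA 1 in green and siRNA 2 in purple, from the fit with edgeR's count filter. Filled points have adjusted p of at most 0.05, and genes without points were not tested. With siRNA 2 the 6 beta and 6 gamma genes called all lie above 0, with uncalled genes between them.

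In the gamma array, PCDHGB2 rose with both siRNAs. It had 3.05, 3.64 and 2.97 FPKM with siRNA 1 and 3.07, 3.25 and 1.97 FPKM with siRNA 2, against 1.12, 0.669 and 1.30 FPKM with control siRNA. All 6 knockdown libraries were above the control libraries. PCDHGB2 rose by 1.62 ± 0.27 with siRNA 1 (adjusted p = 0.00157) and by 1.37 ± 0.27 with siRNA 2 (adjusted p = 0.00272), and the difference of 0.25 ± 0.26 did not pass (adjusted p = 0.486). PCDHGB4 had 0.811, 1.44 and 1.68 FPKM with siRNA 1 and 0.575, 1.52 and 0 FPKM with siRNA 2, against 1.32, 1.02 and 0.662 FPKM with control siRNA. PCDHGC3, which is a C-type isoform, had 1.84, 2.14 and 0.525 FPKM with siRNA 1 and 1.28, 1.66 and 2.78 FPKM with siRNA 2, against 0.983, 1.11 and 0.972 FPKM with control siRNA. Neither passed in any comparison, with adjusted p of 0.828 and 0.711 for PCDHGB4 and 0.403 and 0.173 for PCDHGC3 with siRNA 1 and siRNA 2. Without siRNA 1 replicate 3, PCDHGC3 passed with siRNA 1 at 0.93 (adjusted p = 0.0405) and with siRNA 2 at 0.84 (adjusted p = 0.0339). Gamma genes share between 27.6% and 64.4% of their exonic bases with each other on the same strand, so a level of a single gamma gene depends on how the authors' counting divided the shared reads.

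The count filter tested 19 of the 22 gamma genes. With siRNA 2, 6 rose and 0 fell, 16 of 19 changes were positive and the median was 1.15, beside 16% of all genes higher, 19.4% lower and a median of 0.0088. With siRNA 1, 1 rose and 0 fell, 13 of 19 were positive and the median was 0.35, beside 13.3% of all genes higher, 14.2% lower and a median of 0.00054. The 1 of 19 called higher with siRNA 1 is below that share. Those that rose with siRNA 2 besides PCDHGB2 were PCDHGA4 (1.86 ± 0.46), PCDHGA5 (1.37 ± 0.23), PCDHGB3 (1.15 ± 0.25), PCDHGA6 (1.67 ± 0.26) and PCDHGB6 (1.99 ± 0.48), with adjusted p between 9.35e-04 and 0.0119. All but PCDHGB6 form a run of neighbours from PCDHGA4 to PCDHGA6, which PCDHGB2 belongs to. PCDHGA5, the highest gamma gene below the filter, averaged 0.339 ± 0.0596 FPKM with siRNA 1, 0.714 ± 0.176 FPKM with siRNA 2 and 0.257 ± 0.0327 FPKM with control siRNA.

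No alpha protocadherin passed the filter. PCDHA11, the highest, had 1.33, 0.739 and 0.549 FPKM with siRNA 1 and 0.834, 0.713 and 1.35 FPKM with siRNA 2, against 0.752, 0.291 and 0.262 FPKM with control siRNA. The 3 groups overlapped. The count filter tested 6 of 15 alpha genes and called 0 in either comparison, where 27.5% and 35.4% of all genes were called, with median changes of 0.91 with siRNA 1 and 1.67 with siRNA 2. Alpha genes share 21.3% to 56.6% of their exonic bases on the same strand, so the level of a single alpha gene depends on how shared reads were divided. Whether the sum over the array depends on it less was not tested.

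Summed by subfamily, type I cadherins and cadherin-related genes were lower in all 6 knockdown libraries than in any control library. Type II cadherins and clustered protocadherins were higher in all 6. Other cadherins and non-clustered protocadherins were not on the same side of the control range in all 6. The type II sum was 5.77, 5.42 and 5.27 FPKM with siRNA 2, against 3.98, 4.00 and 4.19 FPKM with control siRNA. CDH12 gave 1.59, 1.34 and 1.52 FPKM of the siRNA 2 sums, and without it they overlap the control sums. The mean cadherin-related sum was 0.318, 0.370 and 0.802 FPKM with siRNA 1, siRNA 2 and control siRNA. CDHR3 gave 0.0242, 0.0123 and 0.456 FPKM of these, and without it the groups overlap. The type I sum was 35.2 ± 2.85 FPKM with siRNA 1 and 31.5 ± 5.79 FPKM with siRNA 2, against 74.3 ± 5.06 FPKM with control siRNA. The beta sum was 11.7 ± 1.56 FPKM with siRNA 1 and 21.3 ± 0.688 FPKM with siRNA 2, against 8.87 ± 0.676 FPKM with control siRNA. The gamma sum was 8.46 ± 1.46 FPKM with siRNA 1 and 10.1 ± 0.845 FPKM with siRNA 2, against 5.36 ± 0.491 FPKM with control siRNA. The alpha sum was 2.14 ± 0.304 FPKM with siRNA 1 and 2.75 ± 0.320 FPKM with siRNA 2, against 1.44 ± 0.195 FPKM with control siRNA.

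CDH1 alone held 41.7% ± 3.19 of the summed FPKM of all 94 members with siRNA 1 and 32.7% ± 5.06 with siRNA 2, against 63.4% ± 0.627 with control siRNA. The beta genes held 15.2% ± 1.26 with siRNA 1 and 26.9% ± 1.23 with siRNA 2, against 8.32% ± 1.03 with control siRNA. A share can grow because CDH1 shrinks, so the sum without CDH1 is given as well. It was 44.9 ± 3.86 FPKM with siRNA 1 and 53.1 ± 0.763 FPKM with siRNA 2, against 39.1 ± 1.65 FPKM with control siRNA. These sums are descriptions without a test.

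**Figure D4:**
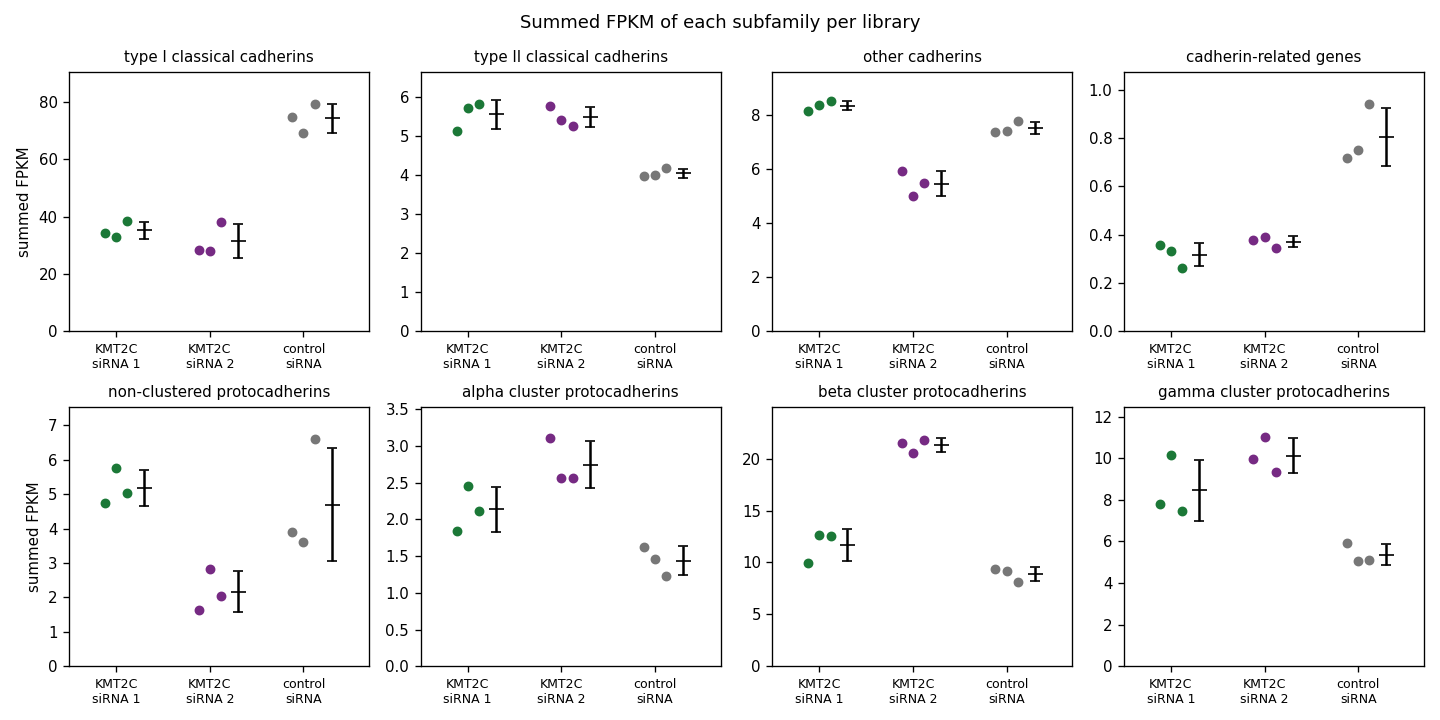
Summed FPKM (vertical axis, linear, from 0, scaled per panel) of each subfamily in every library of KMT2C siRNA 1, KMT2C siRNA 2 and control siRNA. Points are libraries and bars the mean ± SD of 3. Type I sums lie at 28.1 to 38.4 FPKM in the 6 knockdown libraries and 69.1 to 79.2 FPKM in control libraries. Cadherin-related sums are also lower in all knockdown libraries, while type II, alpha, beta and gamma sums are higher. The type II rise with siRNA 2 rests on CDH12, and the cadherin-related fall mainly on CDHR3.

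Directly compared, siRNA 1 and siRNA 2 gave different levels of 10 of the 16 tested members, 4 higher and 6 lower with siRNA 1, where 39.5% of all genes were called (20.6% higher and 18.9% lower). Without CDH12, 9 of 15 were called, 4 higher and 5 lower. CDH7, CDH17, CDH26 and PCDH1 were higher with siRNA 1. CDH4, CDH12, PCDHB3, PCDHB5, PCDHB8 and PCDHB11 were lower with siRNA 1. The PCDHB11 difference, -0.53 ± 0.18, passed narrowly (adjusted p = 0.0491) and was lost in 7 of the 9 fits that leave out a library (adjusted p = 0.0504 to 0.134), the exceptions being the third control library and siRNA 1 replicate 2. It was also lost on the count filter, without a low-value filter, with limma on log2(FPKM + 0.1) and with only the 2 groups compared in the fit (adjusted p = 0.0501 to 0.145). KMT2C itself did not pass between the siRNAs, with a difference of 0.17 ± 0.12 (adjusted p = 0.309).

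The partners of cadherins were also followed in 8 lists. Over all genes tested, 41.7% were called with siRNA 1 (21.2% higher and 20.5% lower) and 49.3% with siRNA 2 (24.4% higher and 24.9% lower), and each list's counts are read against these shares. Of 10 tested catenins and junction linkers, 1 rose and 5 fell with siRNA 1, and 1 rose and 4 fell with siRNA 2, so that 6 and 5 of 10 were called, not far from the shares over all genes. The neural catenin gene CTNND2 averaged 4.07 ± 0.515 FPKM with siRNA 1, 3.71 ± 0.162 FPKM with siRNA 2 and 7.26 ± 0.546 FPKM with control siRNA, and fell by 0.86 ± 0.10 with siRNA 1 and 1.02 ± 0.10 with siRNA 2. CTNNAL1, an alpha-catenin relative, fell by 0.29 ± 0.07 and 1.17 ± 0.07 with siRNA 1 and siRNA 2. PKP4, a p120-catenin relative, rose by 0.30 ± 0.07 and 0.76 ± 0.07. VCL, which encodes the actin linker vinculin, fell by 0.88 ± 0.08 with siRNA 2 (adjusted p = 2.85e-05) and its 0.16 ± 0.08 with siRNA 1 did not pass (adjusted p = 0.128). The core catenins were named after their values were seen: CTNNA1 fell by 0.50 ± 0.09 and 0.37 ± 0.09 with siRNA 1 and siRNA 2, and CTNNB1, which encodes beta-catenin, fell by 0.28 ± 0.07 with siRNA 1. CTNNB1 averaged 14.9 ± 1.01 FPKM with siRNA 1, 18.5 ± 0.409 FPKM with siRNA 2 and 17.8 ± 1.01 FPKM with control siRNA, and did not pass with siRNA 2 (adjusted p = 0.987).

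Nectins, immunoglobulin-type adhesion molecules of the same junctions, were called in both directions. Of 5 tested, 2 rose and 1 fell with siRNA 1, and 1 rose and 2 fell with siRNA 2, where 41.7% and 49.3% of all genes were called. NECTIN2 averaged 25.8 ± 1.36 FPKM with siRNA 1, 7.98 ± 0.1001 FPKM with siRNA 2 and 15.5 ± 1.50 FPKM with control siRNA. With siRNA 1 it rose by 0.71 ± 0.08, and with siRNA 2 it fell by 1.02 ± 0.08. NECTIN3 did the reverse, falling by 0.92 ± 0.15 with siRNA 1 and rising by 1.25 ± 0.15 with siRNA 2. NECTIN4 fell by 1.29 ± 0.14 with siRNA 2, and NECTIN1 rose by 0.31 ± 0.08 with siRNA 1. Among 7 tested large atypical cadherins, which carry cadherin repeats but fall outside the naming rule, 1 rose and 5 fell with siRNA 1, and 1 rose and 2 fell with siRNA 2. The 3 of 7 called with siRNA 2 stand beside 49.3% of all genes, and the 6 of 7 with siRNA 1 beside 41.7%. CLSTN2, a calsyntenin of synapses, was raised by 1.12 ± 0.15 with siRNA 1, and with siRNA 2 it fell by 1.98 ± 0.15. The planar polarity gene CELSR1 and its relatives CELSR2 and CELSR3 fell by 1.10 ± 0.10, 0.39 ± 0.08 and 0.38 ± 0.08 with siRNA 1. With siRNA 2 CELSR3 rose by 0.28 ± 0.08, and CELSR1 and CELSR2 did not pass (adjusted p = 0.883 and 0.169).

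Of the classical repressors of the E-cadherin gene, SNAI1 and TCF3 were expressed enough to be tested, while SNAI2, ZEB1, ZEB2, TWIST1, TWIST2 and TCF4 were below the filter, with means between 0 and 0.155 FPKM in every group. SNAI1 averaged 1.42 ± 0.566 FPKM with siRNA 1, 2.18 ± 0.545 FPKM with siRNA 2 and 0.878 ± 0.286 FPKM with control siRNA. It rose by 1.25 ± 0.37 with siRNA 2 (adjusted p = 0.0209), and its 0.66 ± 0.37 with siRNA 1 did not pass (adjusted p = 0.186). TCF3 rose by 0.84 ± 0.15 with siRNA 1 (adjusted p = 0.00261), and its 0.10 ± 0.15 with siRNA 2 did not pass (adjusted p = 0.633). Of 9 tested activators and epithelial factors, 0 rose and 6 fell with siRNA 1, and 1 rose and 7 fell with siRNA 2, where 20.5% and 24.9% of all genes were called lower. The grainyhead factor GRHL1 averaged 2.05 ± 0.0983 FPKM with siRNA 1, 2.33 ± 0.106 FPKM with siRNA 2 and 4.88 ± 0.345 FPKM with control siRNA. GRHL2 averaged 39.2 ± 2.60 FPKM with siRNA 1, 38.6 ± 1.55 FPKM with siRNA 2 and 55.6 ± 0.767 FPKM with control siRNA. GRHL1 fell by 1.27 ± 0.08 and 1.12 ± 0.08, GRHL2 by 0.53 ± 0.06 and 0.58 ± 0.06, and the ETS factor EHF by 0.39 ± 0.08 and 0.81 ± 0.08 with siRNA 1 and siRNA 2. The splicing regulator ESRP2 fell by 0.91 ± 0.08 with siRNA 2, and its -0.18 ± 0.08 with siRNA 1 did not pass (adjusted p = 0.101).

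Of 10 tested genes of cadherin shedding and turnover, 1 rose and 6 fell with siRNA 1, and 1 rose and 2 fell with siRNA 2, or 7 and 3 of 10 called beside 41.7% and 49.3% of all genes. The metalloprotease gene ADAM15, whose product can cleave E-cadherin, averaged 18.9 ± 2.55 FPKM with siRNA 1, 15.2 ± 0.806 FPKM with siRNA 2 and 4.77 ± 0.141 FPKM with control siRNA. It rose by 1.96 ± 0.10 and 1.62 ± 0.10 with siRNA 1 and siRNA 2 (adjusted p = 5.79e-06 and 5.31e-06). ADAM17 fell by 1.04 ± 0.10, ADAM9 by 0.52 ± 0.07 and the gamma-secretase gene NCSTN by 0.52 ± 0.06 with siRNA 1, and these 3 did not pass with siRNA 2 (adjusted p = 0.794, 0.214 and 0.255).

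Of 12 tested regulators of the protocadherin clusters, 1 rose and 2 fell with siRNA 1, and 3 rose and 1 fell with siRNA 2. These 3 and 4 of 12 called are smaller shares than the 41.7% and 49.3% of all genes. CTCF, named after its values were seen, averaged 4.68 ± 0.265 FPKM with siRNA 1, 4.95 ± 0.0433 FPKM with siRNA 2 and 4.94 ± 0.324 FPKM with control siRNA and did not pass (adjusted p = 0.279 and 0.569). The cohesin gene RAD21 fell by 0.29 ± 0.06 and 0.61 ± 0.06, and the cohesin gene SMC1A rose by 0.35 ± 0.05 and 0.39 ± 0.05 with siRNA 1 and siRNA 2. SMCHD1, a chromatin protein known to repress clustered protocadherins in the mouse, averaged 7.99 ± 0.742 FPKM with siRNA 1, 11.5 ± 0.180 FPKM with siRNA 2 and 7.80 ± 0.655 FPKM with control siRNA, and rose by 0.51 ± 0.08 with siRNA 2 (adjusted p = 7.20e-04). The cohesin loader gene NIPBL fell by 0.33 ± 0.10 with siRNA 1 (adjusted p = 0.0230). Of 9 tested protocadherin effectors, 1 rose and 4 fell with siRNA 1, and 1 rose and 6 fell with siRNA 2, or 5 and 7 of 9 called, beside 41.7% and 49.3% of all genes. WASF1, a subunit of the actin-regulating WAVE complex, fell by 0.30 ± 0.07 and 0.79 ± 0.07, and the kinase gene FYN by 1.17 ± 0.10 and 0.69 ± 0.10. The focal adhesion kinase gene PTK2 rose by 0.22 ± 0.06 and 0.59 ± 0.06, while its relative PTK2B fell by 0.94 ± 0.12 with siRNA 2 and did not pass with siRNA 1 (-0.21 ± 0.12, adjusted p = 0.207).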

How the data were processed

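Transcript levels were read for 60612 genes over 9 libraries, 3 per group. The deposited values are estimated counts and FPKM calculated by the authors. The counts are whole numbers that were not normalized per the file headers and values. FPKM is listed at 0.0001 where counts are 0, and is then written as 0 in the text. About 4 counts are taken to stand for 1 sequenced fragment, because values pile up at 4 (11286 values) and 8 (5914). Values of 1, 2 and 3 also occur (6621, 5430 and 4677), and no source used here states the ratio. The submitters' processing notes name Bowtie 0.12.2 and the builds hg38 and mm8 without a role. No source used here gives the counting tool, its use of strand or its treatment of shared reads. Coordinates are as deposited, and all 94 members are in GENCODE 29 on GRCh38, 30 with the same start and end.

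The members, the lists and the naming rule were chosen with earlier results of these data known. The tested genes (12830) had an FPKM of 1 or more in 3 or more libraries, and were fitted with edgeR 4.0.16 (R 4.3.3, and the data.table package at version 1.17.8) on the estimated counts, as deposited. Scaling was TMM, and the test the quasi-likelihood F test. The fit covered all 9 libraries with 1 mean per group, and p-values were 2-sided and adjusted by Benjamini-Hochberg over all genes, with calls at 0.05. SE is the size of the log2 fold change over the square root of F. The second filter was edgeR's filterByExpr (21150 genes). Alternatives used DESeq2 1.42.0 and limma 3.58.1. The script was tested on simulated data. Depth limits members below the filter, and the exact counting interval (95%) covers counting error only. Shared bases and 75-base stretches were computed from GENCODE 29 exons and transcripts.

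The text names KMT2C, every tested member, the highest member below the filter in each subfamily, and up to 4 called genes per partner list by smallest adjusted p. Other genes are said to be named after their values were seen. Same-numbered libraries did not deviate together (correlations of -0.0688 to 0.0393 over 9 pairs, 0 of them over 0.1), so replicate numbers were not used as pairs. No batch is named in the labels. Protein sequences were not used here, and 1 further marker gene is not reported here.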

Additional observations from a re-analysis of the deposited data

Results flagged for a closer look

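For 9 tested members and CDH12 the effect of siRNA 1 differed from that of siRNA 2, by the test of the difference itself in the same edgeR fit (siRNA 1 effect minus siRNA 2 effect, log2). In CDH7 the effects had opposite signs and both passed, and the difference was 1.26 (adjusted p = 1.14e-05). In CDH26 the effects also had opposite signs, of which the siRNA 1 effect passed, and the difference was 0.48 (adjusted p = 0.00139). In CDH17 both siRNAs lowered the gene and differed by 2.80 (adjusted p = 1.26e-05), and in CDH4 by -0.85 (adjusted p = 4.77e-05). PCDH1 changed with siRNA 2 and differed by 1.51 (adjusted p = 0.00433). CDH12, almost without counts outside the siRNA 2 libraries, differed by -5.85, but it entered the test through those libraries alone, so this value is a description with no p. Among the beta protocadherins the level was lower with siRNA 1 than with siRNA 2 in PCDHB8 (-1.65, adjusted p = 7.22e-05), PCDHB3 (-0.65, adjusted p = 0.00271), PCDHB5 (-0.67, adjusted p = 0.00763) and PCDHB11 (-0.53, adjusted p = 0.0491). The effects of siRNA 1 on PCDHB5 and PCDHB11 against control siRNA did not themselves pass (adjusted p = 0.128 and 0.115). Remaining KMT2C was 14.5% of the control FPKM with siRNA 1 and 13.1% with siRNA 2. What sets the siRNAs apart was not tested.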

How the results depend on the processing

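With edgeR's count filter in place of the FPKM filter, 60 members were tested instead of 16, and the calls were 12 with siRNA 1 (8 as reported), 21 with siRNA 2 (13 as reported) and 16 between the siRNAs (10 as reported). More genes enter under that filter, and more members with few reads. Without any low-value filter the counts were 8, 19 and 13. In the fits that leave out a library the counts were 5 to 9 with siRNA 1, 10 to 14 with siRNA 2 and 8 to 10 between the siRNAs. The split with siRNA 2, 8 higher and 5 lower, was 5 higher and 6 lower without siRNA 2 replicate 1 and 5 higher and 5 lower without replicate 2 or 3, and CDH12 was not tested in those 3 fits. With replicate number as a block (replicate block), the counts were 7, 12 and 10. The block ended the calls of PCDHB3 with siRNA 1, PCDHB2 with siRNA 2 and PCDHB11 between the siRNAs (adjusted p = 0.0530, 0.0681 and 0.0934) and added CDH1 between the siRNAs (0.0266). Of 9 libraries, 0 correlated best with their own number. DESeq2 size factors, upper-quartile scaling, DESeq2's test, limma on log2(FPKM + 1) or log2(FPKM + 0.1), counts divided by 4 and fits of only the 2 groups compared gave 7 to 9 calls with siRNA 1, 13 or 14 with siRNA 2 and 9 or 10 between the siRNAs.

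Alternatives were run for the 16 tested members and KMT2C, not for the other genes named. None of them reversed under a setting other than leaving out a library, where 490 values kept direction and call, 15 lost the call and 5 gained it. On leaving out a library, 407 kept both, 31 lost the call, 6 gained it and 6 reversed, none of these called. The reversals were in PCDH1 with siRNA 1 (range -0.063 to 0.47), PCDHB2 with siRNA 1 (-0.091 to 0.59), PCDHGB4 with siRNA 2 (-1.83 to 0.017) and PCDHGC3 between the siRNAs (-0.64 to 0.096). Apart from the calls named in the report, limma's pseudocount lowered the changes of low genes by its construction, with siRNA 2 to -1.17 for CDH17, 1.30 for CDH12, 0.47 for PCDHB11 and -0.44 for CDH7. CDH12 with siRNA 1 was called by DESeq2's test (adjusted p = 0.0248) and without control replicate 2 (0.0103). PCDHB2 with siRNA 2 also lost its call with DESeq2 size factors (0.0512). CDH12 with siRNA 2 was 12.3 without control replicate 2, the only control library with counts, which depends on the prior count. Upper-quartile scaling moved the median of all genes with siRNA 2 to 0.12, beside 0.02. Levels under about 0.1 FPKM rest on few fragments, and single alpha and gamma genes on how shared reads were divided. The same holds in part for beta genes, through stretches repeated in other genes.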

Other observations

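Single libraries stood apart in a few members below the filter, all named after their values were seen. PCDH20, a neuronal protocadherin, had 102 estimated counts in siRNA 2 replicate 3 and none in the other 8 libraries, and 95.8% of its exonic bases are shared with AL592490.1 on the same strand. PCDHAC2, the last gene of the alpha array, had 138 estimated counts in siRNA 2 replicate 2, where it reached 0.278 FPKM, against at most 0.0239 FPKM in every other library. PCDHGA8, the neighbour of PCDHGB4, had 0.140, 0.00983 and 0.00522 FPKM with siRNA 1 and 0.360, 0.00520 and 0.355 FPKM with siRNA 2, against 0.138, 0.174 and 0.144 FPKM with control siRNA, while PCDHGB4 was at 0 FPKM in siRNA 2 replicate 3. The leukocyte marker CD14, which lies on chromosome 5 as the clusters do, averaged 1.49 ± 0.272 FPKM with siRNA 1, 1.50 ± 0.514 FPKM with siRNA 2 and 0.516 ± 0.0486 FPKM with control siRNA, and the leukocyte markers PTPRC and CD3E were at or near 0.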
